A study of Mus musculus with 24 samples.

Results

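Expression of 10 genes of the Notch pathway was followed in C2C12 cells, a mouse myoblast line that exits the cell cycle and fuses into myotubes after a change of medium. The members were the receptor genes Notch1, Notch2 and Notch3, the ligand genes Jag1, Jag2 and Dll1, the target genes Hes1, Hey1 and Heyl, and Numb. They are 10 of 18193 named genes. Every probe set whose only annotated symbol was one of these was taken, which gave 19 of the 45137 non-control probe sets on the 2 array designs: 18 of 22626 on the design labelled MA and 1 of 22511 on the design labelled MB. On the MA design all 10 genes had a probe set, and the MB probe set belonged to Jag1.

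Notch is a receptor that is cut after it binds a Delta or Jagged ligand on a neighbouring cell. The freed intracellular domain enters the nucleus, joins the DNA-binding protein RBPJ and switches on genes of the Hes and Hey families, which encode transcriptional repressors. In skeletal muscle the pathway is known for keeping satellite cells and myoblasts undifferentiated, and Numb is known as an inhibitor that promotes removal of the receptor.

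Total RNA was hybridised to 24 arrays, 12 per design, with 3 arrays in each of 4 groups. The groups were cells with a short hairpin RNA (shRNA) against p68 in differentiation medium (DM), cells with the empty pSuperR vector in DM, cells with the p68 shRNA in growth medium (GM) and cells with the empty vector in GM. p68, a DEAD-box helicase, is the product of Ddx5, and the stated aim was to follow muscle differentiation under RNA interference with p68 and its relative p72. All groups carried the vector backbone. The labels do not give the time in DM, the number of hairpins, and whether the cells were a clone or a pool. They also do not say whether the 3 arrays of a group came from separate cultures, and the p-values can therefore reflect technical spread alone.

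Values are the deposited linear signals, which share a trimmed mean of about 150 on every array. Changes are differences of mean log2(signal + 15), a scale that understates the change of weak signals, with the standard error and the Benjamini-Hochberg adjusted p of a limma fit over all tested probe sets of the design. A change was called at an adjusted p under 0.05. The number of arrays limits the precision.

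The myoblast marker Myod1 had a signal of at least 1163 on every MA array, and all 6 myotube markers (Myog, Ckm, Myh3, Acta1, Tnnt3 and Mymk) were called higher in DM with either construct. Ddx5 itself changed by -0.68 ± 0.15 with the shRNA in DM (limma, adjusted p = 0.00677) and by -0.31 ± 0.15 in GM (adjusted p = 0.287). These values are from the probe set with the highest signal of its 6 tested MA probe sets, and the others are not given here. Among the MA arrays, vector replicate 3 of DM correlated least with its own group (mean r = 0.951 over probe sets, where the others had 0.962 to 0.983), and the MB arrays were noisier, with a median residual SD of 0.523 against 0.214 in the MA arrays.

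The test took in probe sets with a signal of 30 or more on at least 3 of the 12 arrays. Of the 18 MA member probe sets 14 passed, 10 of them with at least 30 on all 12 arrays. The other 4 that passed, 1 each of Jag2 and Hey1 and 2 of Heyl, were under 30 on some arrays and so entered partly through the groups where they were high. The remaining 4 stayed under 30 on every array: both MA probe sets of Jag1 and 1 probe set each of Notch2 and Numb, with no signal above 28.93. Jag1 was therefore measured only on the MB arrays.

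With the shRNA in DM, the receptors, the ligand gene Jag2 and the targets were higher than with the vector. Of the 14 tested MA probe sets 11 were called higher and 0 lower, where 10.7% of all tested MA probe sets were called higher and 6.24% lower. For 12 of the 14 the 2 groups of arrays did not overlap, as was so for 30.7% of all tested MA probe sets. The median change was 0.79 over the 14 member probe sets and 0.05 over all MA probe sets. Among the 10 with at least 30 on all arrays, 7 were called higher. In GM the shRNA gave 1 call, a higher Hey1, against 3.99% called higher and 2.57% lower over all MA probe sets. Hey1 was under 30 on every vector array in GM, and of the 10 with at least 30 on all arrays 0 were called there. The members' medium response also differed between the constructs: the DM minus GM change was larger with the shRNA for 9 of the 14 probe sets, of 5 genes, and smaller for 0 (limma, test of the difference, where 5.48% and 4.48% of MA probe sets were called larger and smaller; 2 members that were not called had an estimate below 0). Among the 10 with at least 30 on all arrays, the change was called larger for 6 and smaller for 0. The comparisons share arrays and so are not independent of each other. In these bulk samples, fewer cells of a type and less RNA per cell cannot be told apart.

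**Figure D1:**
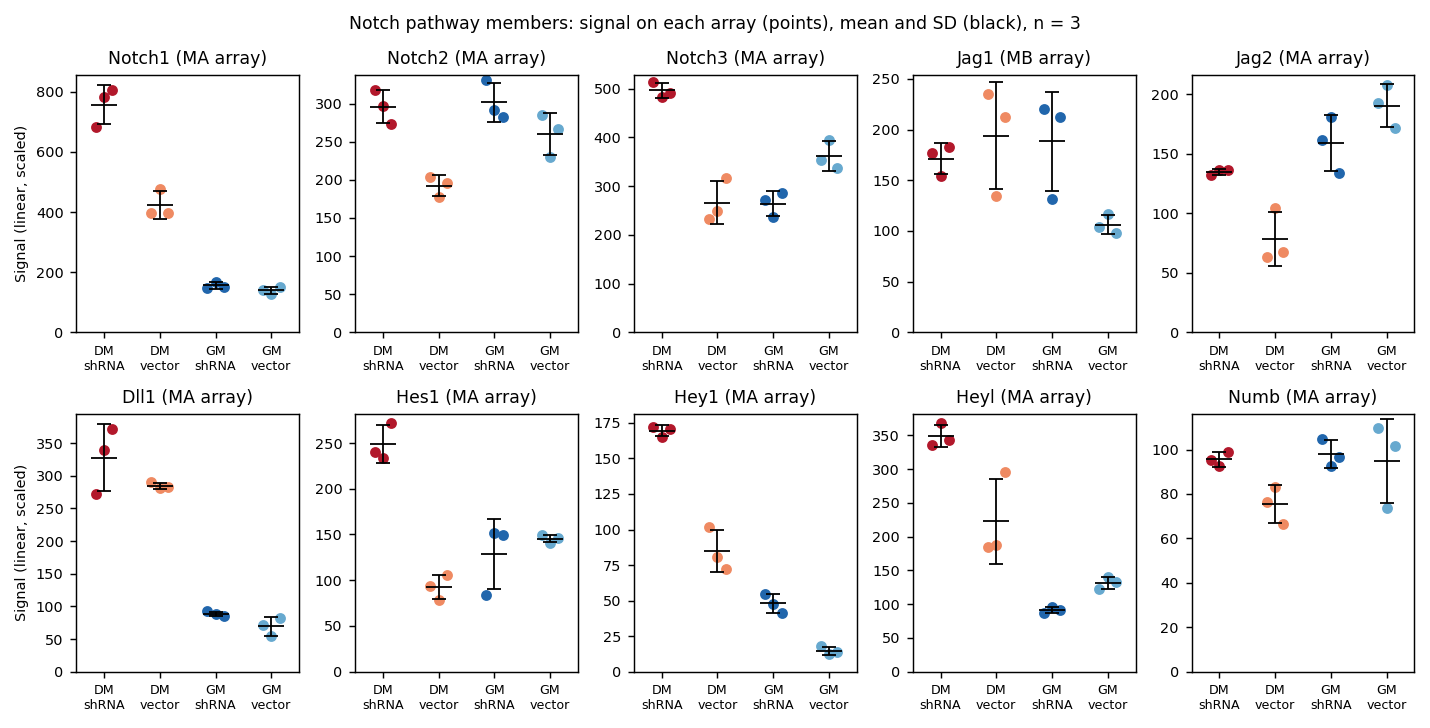
Signal of each member gene (linear, scaled; vertical axes start at 0 and differ between genes) on the 3 arrays of each group (points), with the mean and SD (black bars), at the tested probe set with the highest mean. The shRNA arrays in DM lie above the vector arrays in DM for Notch1, Notch2, Notch3, Jag2, Hes1, Hey1, Heyl and Numb, and Jag1 is from the MB arrays.

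Notch1 encodes the receptor best known for holding muscle progenitors undifferentiated. At its stronger probe set (1418634_at) the signals were 682.7, 782.2 and 806.3 with the shRNA in DM, 396.3, 476.2 and 397.6 with the vector in DM, 148.3, 167.5 and 152.1 with the shRNA in GM and 139.6, 128.9 and 150.4 with the vector in GM. Every DM array lay above every GM array, and in DM every shRNA array lay above every vector array, whereas in GM the constructs overlapped. Notch1 was higher in DM than in GM by 2.17 ± 0.12 with the shRNA (adjusted p = 3.58e-09) and by 1.50 ± 0.12 with the vector (adjusted p = 8.31e-08). With the shRNA it exceeded the vector by 0.82 ± 0.12 in DM (adjusted p = 0.000256), and in GM the difference of 0.15 ± 0.12 was not called (adjusted p = 0.552). The 2 medium responses differed by 0.67 ± 0.17 (adjusted p = 0.0194). That difference lost its call without shRNA replicate 2 of DM (0.65, adjusted p = 0.0578), shRNA replicate 3 of DM (0.63, adjusted p = 0.0529) or vector replicate 4 of GM (0.62, adjusted p = 0.0514).

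The weaker Notch1 probe set (1418633_at) was also higher in DM, by 1.00 ± 0.18 with the shRNA and 0.78 ± 0.18 with the vector (adjusted p = 0.000701 and 0.00268). It gave no call for the shRNA, with 0.31 ± 0.18 in DM (adjusted p = 0.3) and 0.08 ± 0.18 in GM (adjusted p = 0.871). The shRNA difference in Notch1 thus rested on 1 of its 2 probe sets.

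Notch3 encodes a receptor found in satellite cells and, outside muscle fibres, in the mural cells of vessels. Its stronger probe set (1421965_s_at, a suffix that marks probes which can match more than 1 transcript) had signals of 514.3, 483.3 and 491.5 with the shRNA in DM, against 231.9, 249.6 and 316.6 with the vector in DM. In GM, shRNA arrays read 270.6, 236.5 and 285.5, against 353.9, 395.4 and 336.4 with the vector. The shRNA arrays were the higher ones in DM and the lower ones in GM, with no overlap in either medium. In DM the shRNA difference was 0.87 ± 0.13 (adjusted p = 0.000275), and in GM it was -0.43 ± 0.13 and just missed the threshold (adjusted p = 0.0564).

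At its stronger probe set Notch3 thus moved in opposite directions with the medium in the 2 kinds of cell. DM minus GM was 0.88 ± 0.13 with the shRNA (adjusted p = 9.06e-05) and -0.43 ± 0.13 with the vector (adjusted p = 0.0107), and the responses differed by 1.31 ± 0.18 (adjusted p = 0.000398). The weaker probe set (1421964_at) gave 205.5, 144.3 and 187.1 with the shRNA in DM, against 51.9, 91.1 and 93.4 with the vector in DM. It was higher in DM with the shRNA (1.34 ± 0.21, adjusted p = 0.000225), while the vector cells gave -0.03 ± 0.21 (adjusted p = 0.92), and the responses differed by 1.37 ± 0.30 (adjusted p = 0.0103). Both Notch3 probe sets therefore put the shRNA cells in DM highest of the 4 groups.

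Notch2 is another receptor of muscle progenitors. Its tested probe set (1455556_at) had signals of 317.5, 296.6 and 273.7 with the shRNA in DM, 204.2, 178.0 and 195.5 with the vector in DM, 330.5, 291.4 and 282.5 with the shRNA in GM and 284.7, 230.5 and 266.3 with the vector in GM. The vector cells in DM stood below the other groups, which overlapped. The shRNA difference in DM was 0.58 ± 0.12 (adjusted p = 0.00338) and that in GM 0.20 ± 0.12 (adjusted p = 0.38). Notch2 was lower in DM than in GM with the vector (-0.41 ± 0.12, adjusted p = 0.0105), but not without vector replicate 1 of GM (-0.34, adjusted p = 0.0547). With the shRNA the medium change was -0.02 ± 0.12 (adjusted p = 0.894), and the difference between the responses, 0.38 ± 0.17, was not called (adjusted p = 0.185).

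**Figure D2:**
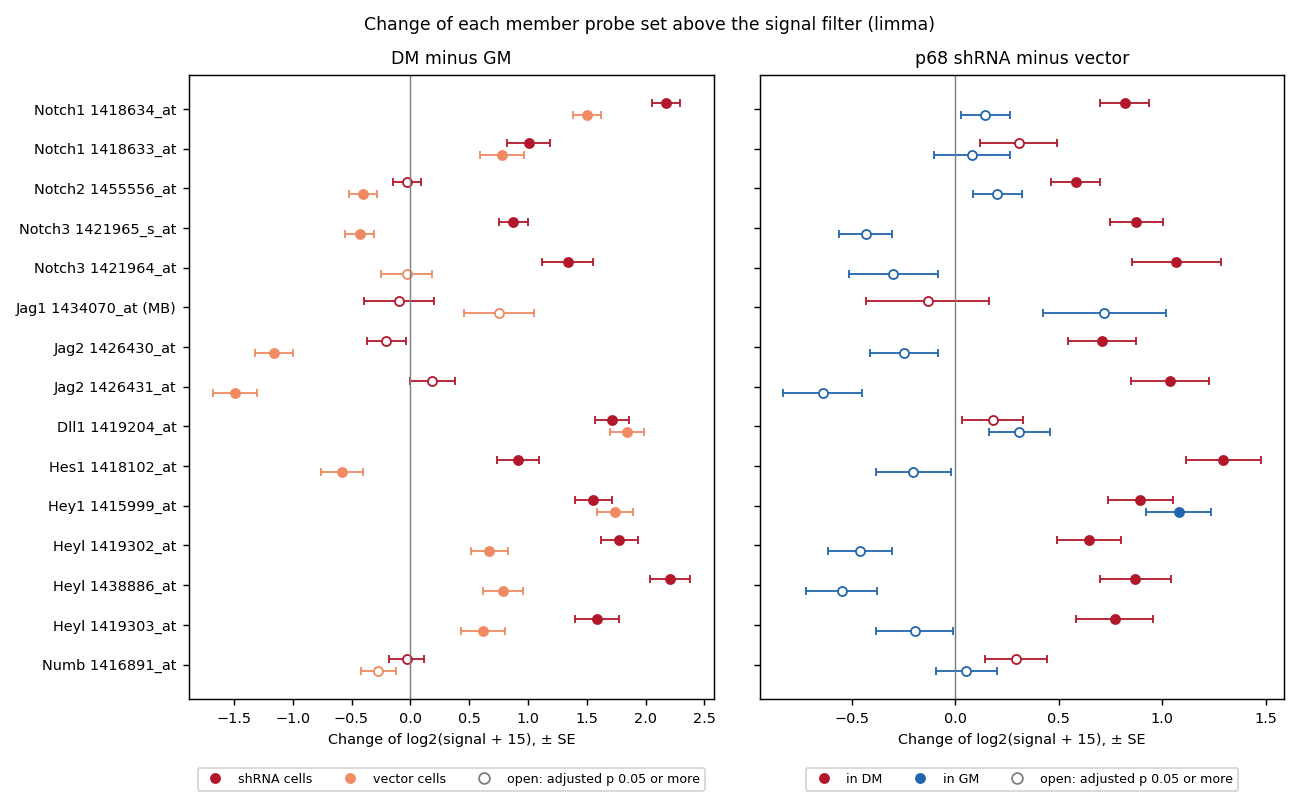
Change of log2(signal + 15) ± SE for the 15 tested member probe sets, DM minus GM on the left and p68 shRNA minus vector on the right, with filled points at an adjusted p under 0.05 (limma). On the right, 11 MA points in DM are filled and lie above 0, and in GM the Hey1 point alone is filled.

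The promoters of the 3 genes that encode a receptor or ligand and responded differently to the medium in the 2 kinds of cell are shown because RBPJ and the Hes and Hey repressors act through DNA. They are RefSeq windows (GRCm38.p6) of 250 bases before to 50 after the start, on the minus strand, at chr2:26503773-26504072 for Notch1, chr17:32166841-32167140 for Notch3 and chr12:112929446-112929745 for Jag2. Capitals mark the N-box CACNAG, a motif that Hes repressors bind, on either strand.
Notch1 promoter: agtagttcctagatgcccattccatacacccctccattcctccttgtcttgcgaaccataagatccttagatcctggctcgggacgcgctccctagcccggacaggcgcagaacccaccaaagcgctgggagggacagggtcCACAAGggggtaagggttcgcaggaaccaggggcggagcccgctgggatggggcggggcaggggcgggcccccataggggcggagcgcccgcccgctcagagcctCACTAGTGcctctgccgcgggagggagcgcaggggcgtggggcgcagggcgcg
Notch3 promoter: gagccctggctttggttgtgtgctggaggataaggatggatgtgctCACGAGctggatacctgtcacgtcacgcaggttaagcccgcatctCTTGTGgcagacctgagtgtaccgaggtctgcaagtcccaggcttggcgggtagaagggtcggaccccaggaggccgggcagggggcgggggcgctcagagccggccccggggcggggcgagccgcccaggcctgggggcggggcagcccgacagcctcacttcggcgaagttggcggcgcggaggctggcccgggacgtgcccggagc
Jag2 promoter: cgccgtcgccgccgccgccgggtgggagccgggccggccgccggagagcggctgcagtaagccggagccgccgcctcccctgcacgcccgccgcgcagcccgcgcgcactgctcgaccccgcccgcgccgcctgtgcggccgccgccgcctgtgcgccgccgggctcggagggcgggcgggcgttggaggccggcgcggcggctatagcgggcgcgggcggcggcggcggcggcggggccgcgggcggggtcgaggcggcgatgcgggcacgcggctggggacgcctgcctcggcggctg
The N-box occurred 3 times in the Notch1 window, where 2 of the matches overlap across the start, and 2 times in the Notch3 window, at -204 to -199 on the plus and -159 to -154 on the minus orientation of the gene. Jag2 had 0. Over all 32851 windows of the same length, 42.5% held an N-box. RefSeq windows were found for 7 of the 10 members, 10 windows in all. The window set had no entry for Hes1, Hey1 and Heyl, so no target gene among the members was searched. The RBPJ core GTGGGAA, searched on both strands, was in 0 of the 10 windows found and in 6.38% of all windows, and the E-box form CACGTG was in 0 and in 7.15%. These matches describe the letters only.

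Among the tested MA ligand probe sets, both of Jag2, a Jagged ligand, were called higher with the shRNA in DM. At its stronger probe set (1426430_at) the signals were 132.0, 136.9 and 136.3 with the shRNA in DM, 63.4, 104.7 and 67.8 with the vector in DM, 161.5, 181.3 and 134.2 with the shRNA in GM and 192.5, 208.1 and 171.4 with the vector in GM. The vector arrays in DM were the 3 lowest of the 12. Jag2 was lower in DM than in GM with the vector (-1.16 ± 0.16, adjusted p = 3.58e-05), and with the shRNA the medium change of -0.20 ± 0.16 was not called (adjusted p = 0.373). The shRNA difference in DM was 0.71 ± 0.16 (adjusted p = 0.00796).

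The second Jag2 probe set (1426431_at) likewise had its lowest group in vector cells in DM and its highest in vector cells in GM, while the shRNA groups of the 2 media overlapped. Its signals in DM were 75.5, 66.6 and 73.2 with the shRNA, against 34.6, 29.5 and 19.2 with the vector. In GM, shRNA arrays read 64.8, 45.1 and 76.9, against 94.9, 120.3 and 97.5 with the vector. DM minus GM was 0.19 ± 0.19 with the shRNA (adjusted p = 0.486) and -1.49 ± 0.19 with the vector (adjusted p = 1.16e-05). The responses differed by 0.95 ± 0.23 at the stronger probe set (adjusted p = 0.0182) and by 1.68 ± 0.27 at the second (adjusted p = 0.00125). Without shRNA replicate 4 of GM the first of these was 0.85 and lost its call by a narrow margin (adjusted p = 0.0501).

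Dll1, the Delta ligand that differentiating muscle cells present to their neighbours, behaved otherwise. Its signals were 271.8, 340.0 and 371.4 with the shRNA in DM, 290.2, 282.0 and 282.4 with the vector in DM, 92.2, 88.1 and 85.8 with the shRNA in GM and 71.8, 53.9 and 82.8 with the vector in GM. Both kinds of cell had more in DM than in GM, by 1.71 ± 0.15 with the shRNA (adjusted p = 5.46e-07) and by 1.84 ± 0.15 with the vector (adjusted p = 1.03e-07). The shRNA difference was not called in DM (0.18 ± 0.15, adjusted p = 0.457) or in GM (0.31 ± 0.15, adjusted p = 0.254), nor was the difference between the responses (-0.13 ± 0.21, adjusted p = 0.773). In GM the shRNA arrays lay above the vector arrays without overlap, and the exact two-sided permutation p was 0.1, the smallest that 3 against 3 arrays allow.

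Jag1, the other Jagged ligand, gave no call on the MB arrays. Its signals (1434070_at) were 177.1, 154.2 and 182.6 with the shRNA in DM, 234.9, 134.2 and 212.6 with the vector in DM, 220.4, 131.9 and 212.8 with the shRNA in GM and 103.6, 116.4 and 98.0 with the vector in GM. The vector cells in GM lay below all other arrays. DM exceeded GM by 0.76 ± 0.30 with the vector (adjusted p = 0.138), and in GM the shRNA exceeded the vector by 0.72 ± 0.30 (adjusted p = 0.571). Each of these comparisons had no overlap between its groups and an exact two-sided permutation p of 0.1, the smallest possible. Calls were rare on the MB design: in either direction 4.85% of tested MB probe sets were called for the medium with the shRNA, 9.21% for the medium with the vector, 1.17% for the shRNA in DM, 0.275% for the shRNA in GM and 0.389% for the difference between the responses.

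Hes1, a repressor and the classic target of Notch, had the largest shRNA difference in DM among the members. Its signals (1418102_at) were 239.7, 233.8 and 272.2 with the shRNA in DM, against 93.7, 78.8 and 105.7 with the vector in DM. In GM they were 84.2, 151.1 and 149.4 with the shRNA, against 149.6, 141.2 and 145.6 with the vector. The shRNA arrays in DM were the 3 highest of the 12, while in GM the groups overlapped and shRNA replicate 2 stood apart as the lowest of the 6. The mean signal in DM was 2.68 times as high with the shRNA as with the vector, and the log2 difference was 1.30 ± 0.18 (adjusted p = 0.000189). In GM the difference of -0.20 ± 0.18 was not called (adjusted p = 0.595).

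Hes1, like the stronger Notch3 probe set alone, moved in opposite directions with the medium in the 2 kinds of cell. It was higher in DM than in GM with the shRNA (0.92 ± 0.18, adjusted p = 0.00115) and lower in DM with the vector (-0.58 ± 0.18, adjusted p = 0.0144), and the responses differed by 1.50 ± 0.25 (adjusted p = 0.00203). The lower level in vector cells was not called without vector replicate 2 of DM (-0.49, adjusted p = 0.063).

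Heyl, a Hey-family repressor and Notch target, was higher in DM in both kinds of cell and more so with the shRNA, at each of its 3 probe sets. The strongest (1419302_at) had signals of 335.8, 367.6 and 342.8 with the shRNA in DM, 184.5, 187.8 and 295.7 with the vector in DM, 86.5, 95.1 and 91.9 with the shRNA in GM and 121.7, 139.6 and 132.4 with the vector in GM. The shRNA cells held both the highest and the lowest arrays, and vector replicate 3 of DM stood apart from its 2 partners. DM exceeded GM by 1.78 ± 0.15 with the shRNA (adjusted p = 6.18e-07) and by 0.67 ± 0.15 with the vector (adjusted p = 0.00222), and the responses differed by 1.11 ± 0.22 (adjusted p = 0.00531).

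The shRNA difference of Heyl in DM was 0.64 ± 0.15 (adjusted p = 0.00969) at this probe set and 0.85 without vector replicate 3 of DM (adjusted p = 0.000191). With only the 6 arrays of DM in the limma fit it was not called (adjusted p = 0.0526). The other 2 probe sets, 1438886_at and 1419303_at, gave 0.87 ± 0.17 and 0.77 ± 0.19 for the shRNA in DM (adjusted p = 0.00271 and 0.0101). Their medium changes were 2.20 ± 0.17 and 1.58 ± 0.19 in shRNA cells, against 0.79 ± 0.17 and 0.62 ± 0.19 in vector cells, all called (highest adjusted p = 0.0124). The responses differed by 1.42 ± 0.24 at 1438886_at (adjusted p = 0.00211) and by 0.97 ± 0.26 at 1419303_at (adjusted p = 0.0318). At 1419303_at the difference between the responses lost its call without any one of 7 arrays, with values between 0.85 and 0.97 and adjusted p between 0.0603 and 0.0797. They were shRNA replicates 1 and 3 and vector replicate 2 of DM, and shRNA replicates 2 and 4 and vector replicates 3 and 4 of GM. The medium change with the vector at this probe set lost its call without vector replicate 1 of DM (0.52, adjusted p = 0.0533) or of GM (0.51, adjusted p = 0.0609).

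Hey1, the third target, differed from Hes1 and Heyl in being higher with the shRNA in both media. Its signals (1415999_at) were 172.4, 165.0 and 170.9 with the shRNA in DM, 101.4, 80.9 and 72.4 with the vector in DM, 54.6, 47.8 and 41.6 with the shRNA in GM and 18.1, 12.7 and 13.6 with the vector in GM. The 4 groups did not overlap, and the order ran from the shRNA in DM at the top to the vector in GM at the bottom, where the signal was near the pseudocount. The shRNA difference was 0.89 ± 0.16 in DM (adjusted p = 0.00113) and 1.08 ± 0.16 in GM (adjusted p = 0.00096). DM minus GM was 1.55 ± 0.16 with the shRNA (adjusted p = 2.71e-06) and 1.74 ± 0.16 with the vector (adjusted p = 3.44e-07). The difference between the responses of -0.19 ± 0.22 was not called (adjusted p = 0.676).

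Numb gave no call in any comparison at its tested probe set (1416891_at). The signals were 95.1, 92.6 and 99.1 with the shRNA in DM, 76.5, 83.3 and 66.3 with the vector in DM, 104.7, 92.5 and 96.6 with the shRNA in GM and 109.6, 73.6 and 101.4 with the vector in GM. In DM the shRNA arrays lay above the vector arrays (0.29 ± 0.15, adjusted p = 0.208, exact two-sided permutation p = 0.1, the smallest possible). With the vector, DM minus GM was -0.27 ± 0.15 (adjusted p = 0.15), which became a call of -0.42 without vector replicate 3 of GM (adjusted p = 0.0321).

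**Figure D3:**
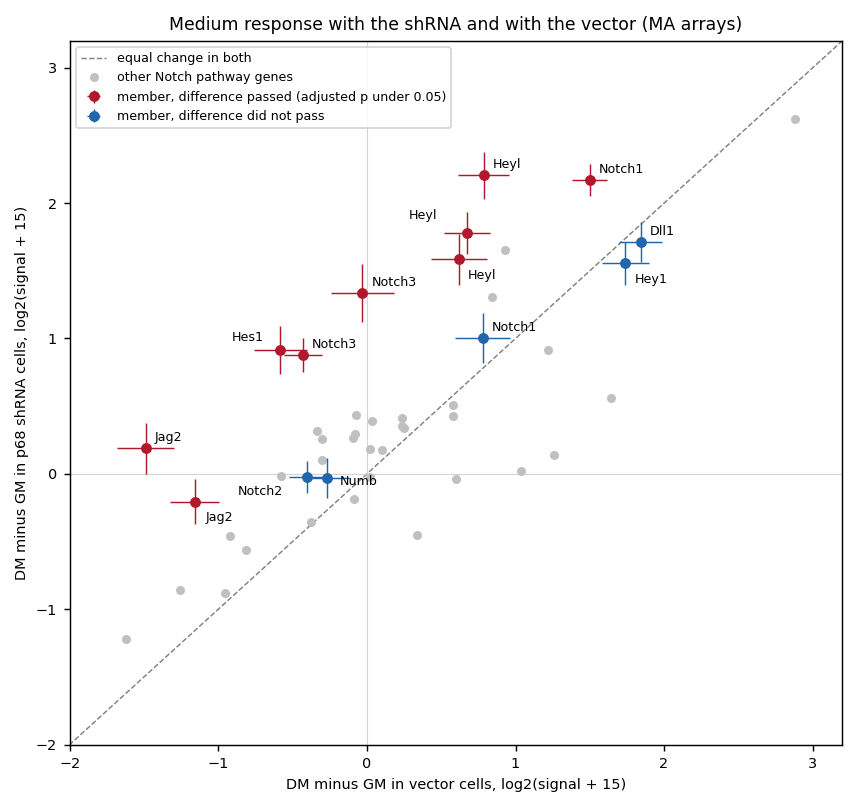
DM minus GM change in p68 shRNA cells (vertical) against that in vector cells (horizontal), log2(signal + 15), for the 14 tested MA member probe sets (± SE) and for other Notch pathway genes (grey), with the dashed line at equal change. Red members, whose responses differed at an adjusted p under 0.05, lie above the line, and Hes1 and 1 Notch3 probe set lie at the upper left, where DM was higher with the shRNA and lower with the vector.

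By medium, the 14 tested MA probe sets fell into 5 patterns. DM was higher than GM with both constructs for 7 probe sets of Notch1, Dll1, Hey1 and Heyl. It was higher with the shRNA and lower with the vector for 2, those of Hes1 and the stronger Notch3. For 3 probe sets, of Jag2 and Notch2, DM was lower with the vector and no change was called with the shRNA. The second Notch3 probe set was higher with the shRNA alone, and Numb had no call. In total 10 were called higher and 0 lower in DM with the shRNA, where 16.3% and 17.5% of MA probe sets were called, and 7 higher and 5 lower with the vector, where the shares were 23.9% and 25.4%.

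In GM the shRNA cells lay below the vector cells for several members, none of them called. Of the 14 probe sets 6 had no overlap between the constructs in GM, where 30% of all tested MA probe sets had none. They were Hey1 and Dll1, higher with the shRNA, and Notch3, Jag2 and 2 of Heyl, lower with it. The second Jag2 probe set differed by -0.64 ± 0.19 (adjusted p = 0.0581) and the Heyl probe sets 1419302_at and 1438886_at by -0.46 ± 0.15 and -0.55 ± 0.17 (adjusted p = 0.0969 and 0.073). Vector replicate 3 of DM is outside this comparison and enters only the shared spread. Without it, these 3 and the stronger Notch3 probe set were called (adjusted p between 0.0134 and 0.0487), and 5 member probe sets passed in all. Without vector replicate 1 of DM the Jag2 and Notch3 probe sets were called and 3 member probe sets passed. A smaller shared spread can add calls over all probe sets, and the share of all MA probe sets called in these fits is not given here. The added calls are therefore not read as particular to the members.

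Other genes of the pathway were read from lists by role, 1 probe set per gene. Of 47 genes 43 had a probe set and 36 were tested, 32 on the MA and 4 on the MB arrays. With the shRNA in DM 4 were called higher and 4 lower, with a median of 0.25. The shares were 10.7% higher and 6.24% lower over MA probe sets, and 1.17% in either direction over MB probe sets. In GM 0 were called in limma, where 3.99% of MA probe sets were called higher and 2.57% lower, and 0.275% of MB probe sets in either direction. The lists were chosen with earlier results of these data known.

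Among genes that modify ligands and receptors, 2 of 11 were higher and 2 lower with the shRNA in DM. The shares were 10.7% higher and 6.24% lower over MA probe sets, and 1.17% in either direction over MB probe sets. Mib2, a ubiquitin ligase that activates Notch ligands, was lower (-0.90 ± 0.15, adjusted p = 0.000954), as was Neurl1a, a ligase of the same kind (-0.65 ± 0.14, adjusted p = 0.00596). Dtx4, a Deltex-family ligase, was higher by 0.89 ± 0.18 on the MB arrays (adjusted p = 0.0147), and its medium response was larger with the shRNA by 1.68 ± 0.25 (adjusted p = 0.00432), where 0.389% of MB probe sets were called in either direction. A second Dtx4 probe set gave no call (0.003 with the shRNA in DM, adjusted p = 0.999). The fourth, Lfng, a fringe enzyme that adds sugar to the receptor and was named after its value was seen, was higher by 0.56 ± 0.15 (adjusted p = 0.0177).

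Of the 4 tested relatives of the targets, Nrarp, a feedback target of Notch, and Hes6, a Hes relative of differentiating muscle, were higher with the shRNA in DM by 0.48 ± 0.14 and 0.40 ± 0.11 (adjusted p = 0.0275 and 0.0173). Second probe sets of Nrarp and Hes6 gave -0.66 and 0.52 (adjusted p = 0.246 and 0.0606), so the direction of Nrarp depended on the probe set. Bhlhe40, a repressor that is also induced by stress and hypoxia, was lower by 0.91 ± 0.11 with the shRNA (adjusted p = 7.7e-05). Hes5, Hes7 and Hey2 stayed under the signal filter. Fbxw7, the ubiquitin ligase subunit that marks the Notch intracellular domain for degradation, was lower at both of its probe sets (-0.99 ± 0.23 at the one used and -0.79 at the other, adjusted p = 0.00848 and 0.00983).

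The core machinery gave no call for the shRNA in DM. Over all MA probe sets 10.7% were called higher and 6.24% lower, and over MB probe sets 1.17% in either direction. The lack of calls therefore does not show an absence of change. The 7 tested receptor proteases had a median change of 0.50, where the median over all MA probe sets was 0.05. They included Psenen and Aph1a, subunits of gamma-secretase (-0.22 ± 0.10 and 0.50 ± 0.17, adjusted p = 0.162 and 0.0621). A second probe set of Aph1b, which was not the one used for that gene, was called on the MB arrays (1.06, adjusted p = 0.032). Of the 6 tested nuclear factors, with a median change of -0.01, Rbpj changed by 0.04 ± 0.13 and Snw1 by -0.15 ± 0.13 (adjusted p = 0.889 and 0.478). At the probe set used, Rbpj was higher in DM than in GM with either construct, by 0.51 ± 0.13 with the shRNA and 0.58 ± 0.13 with the vector (adjusted p = 0.0068 and 0.00172). Another MA probe set of Rbpj gave 0.51 and 0.43 and was not called (limma, adjusted p = 0.226 and 0.278). Its MB probe set gave -0.17 with the shRNA and 0.14 with the vector (adjusted p = 0.81 and 0.782). The medium change of Rbpj thus depended on the probe set. Among other receptors and ligands, Dll4, Dlk1 and Notch4 gave no call in the 5 comparisons. For the medium, 6 of the 36 genes were higher and 6 lower in DM with the shRNA, where 16.3% and 17.5% of MA probe sets were. With the vector 10 were higher and 7 lower, where the MA shares were 23.9% and 25.4%. Over MB probe sets the shares in either direction were 4.85% with the shRNA and 9.21% with the vector. Neurl1a had the largest change with both the shRNA and the vector (2.62 ± 0.14 and 2.88 ± 0.14).

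**Figure D4:**
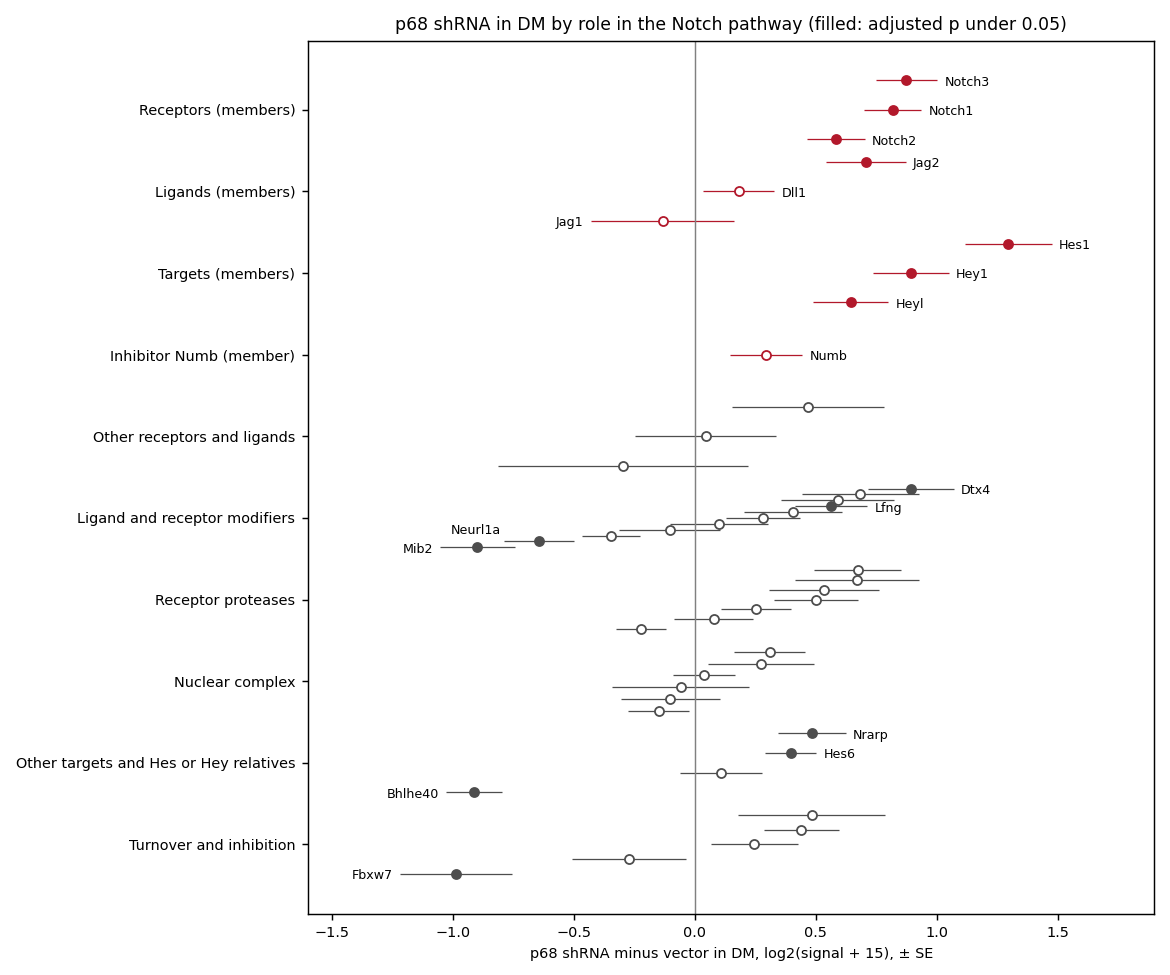
p68 shRNA minus vector in DM, log2(signal + 15) ± SE, for the tested members (red) and other Notch pathway genes (grey) by role, 1 probe set per gene, with filled points at an adjusted p under 0.05 (limma). All 3 receptors and all 3 targets among the members are filled and above 0, whereas the receptor proteases and the nuclear complex have no filled point.

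Markers of cell state moved in the same arrays. With the shRNA in DM, 10.7% of all tested MA probe sets were called higher and 6.24% lower. With the shRNA in DM all 5 measured proliferation markers (Mki67, Top2a, Plk1, Cdk1 and Mcm5) were called higher, and their summed signal was 1560 to 1678 against 511.1 to 638.2 with the vector in DM. Of the 6 myotube markers 3 were called lower with the shRNA in DM and 0 higher, and their summed signal was 22688 to 25591 against 27611 to 44782. Of the 4 tested satellite and reserve cell markers 2 were called higher with the shRNA in DM and 0 lower. Pax7, the transcription factor of satellite cells, was higher by 0.86 ± 0.14 (adjusted p = 0.000578), with 0.01 ± 0.14 in GM (adjusted p = 0.981). Cd34, a surface protein of quiescent satellite cells, was higher in both media, by 1.05 ± 0.16 in DM (adjusted p = 0.000442) and 1.00 ± 0.16 in GM (adjusted p = 0.0022). Sdc4 and Spry1 gave 0.06 ± 0.26 and 0.20 ± 0.18 in DM and were not called (adjusted p = 0.91 and 0.489). The summed signal of the 5 such markers was 517.4 to 580.1 with the shRNA, against 325.0 to 488.6 with the vector in DM. Of 5 myoblast markers Cdh15, a cadherin, was higher (0.51 ± 0.14, adjusted p = 0.0173) and Des, the muscle filament desmin, lower (-0.52 ± 0.16, adjusted p = 0.0413) with the shRNA in DM. The part of these differences in the Notch values was not tested.

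Markers of other cells that use Notch were low or were not called with the shRNA in DM. Of the 4 endothelial markers only Kdr passed the signal filter, with a change of -0.01 ± 0.18 with the shRNA in DM (adjusted p = 0.982), and Pecam1, Cdh5 and Tek stayed under it. Their summed signal was 76.7 to 83.0 with the shRNA and 62.8 to 152.4 with the vector in DM. Smooth muscle markers gave 0 calls in 4 tested for the shRNA in DM, with a summed signal of 8476 to 10569 against 7984 to 13157, most of it Acta2, and Myh11 under the filter. Adipocyte, osteoblast and cartilage, and macrophage markers likewise gave 0 calls with the shRNA in DM, among 2, 3 and 4 tested. Over all MA probe sets 10.7% were called higher and 6.24% lower. With so few markers tested, the lack of calls does not show an absence of change. Adipocyte sums were 178.3 to 179.7 with the shRNA and 152.7 to 231.1 with the vector in DM, osteoblast and cartilage sums 163.9 to 180.6 and 118.5 to 269.7, and macrophage sums 148.1 to 221.2 and 143.6 to 250.1. The log2 ratio of 3' to 5' control signals, a measure of RNA integrity, averaged -0.013 with the shRNA and -0.02 with the vector in DM, and 0.027 with the shRNA and 0.073 with the vector in GM.

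For each member, the 3 genes with the most similar course over the 12 MA arrays were found by Pearson's r of log2(signal + 15). These arrays form 4 groups that share medium and construct, so r describes the course over the groups and carries no test. Hes1 ran closest to Pax7 (r = 0.939), followed by Foxk2 (0.918) and Sbk1 (0.901). Foxk2 was also closest to Notch3 (0.906). Heyl ran with Hipk2 (0.976), Spg21 (0.975) and its relative Hes6 (0.974), and Notch1 with the imprinted gene Mest (0.994), Ndrg4 (0.990) and Rgs16 (0.988). Dll1 followed Iffo1, Pdlim3 and Hip1 (0.992, 0.991 and 0.987), and Hey1 followed Kdm5b, Pvalb and Lmcd1 (0.989, 0.985 and 0.975). Jag2 was closest to Homer3 (0.982), Notch2 to the basement membrane gene Nid2 (0.946) and Numb to Scaf8 (0.925).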

How the data were processed

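Total RNA of C2C12 cells was biotin-labelled for arrays of 2 designs, MA and MB. The authors deposited linear signal intensity values, 1 for each probe set of an array. Per the submitters' processing notes they come from MAS5, an algorithm that combines matched and mismatched probes. Its version is not given, and no detection calls were used here. The arrays already shared a trimmed mean (2% off each end).

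Names came from the designs' annotation, and symbols were compared with the RefSeq table of GRCm38.p6, which changed 0. The members and lists were chosen with earlier results of these data known. Groups and replicate numbers came from the titles. Signals were analysed as log2(signal + 15). Probe sets at 30 or more on at least 3 of 12 arrays were tested (14367 MA, 19303 MB). Each design had its own limma 3.58.1 fit (R 4.3.3) of 4 group means, leaving 8 residual degrees of freedom. The eBayes step used a trend, and p-values were adjusted (Benjamini-Hochberg) within a design and comparison. The fit was tested on simulated data. Named genes were all members, each led by its probe set with the highest mean, and of each list up to 3 genes with the largest called change or else the highest mean. Alternatives were pseudocounts of 5 and 50, no filter, a minimum of 100, quantile normalization, a fit of the 6 arrays compared, no trend, a replicate block, and each array left out.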

Additional observations from a re-analysis of the deposited data

Results flagged for a closer look

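The DM minus GM change differed between shRNA and vector cells for 9 member probe sets on the MA arrays (limma, test of the difference, adjusted p under 0.05). The difference, shRNA cells minus vector cells on the log2(signal + 15) scale, was 0.67 for Notch1 (1418634_at), 1.31 and 1.37 for Notch3 (1421965_s_at and 1421964_at), 0.95 and 1.68 for Jag2 (1426430_at and 1426431_at), 1.50 for Hes1, and 1.11, 1.42 and 0.97 for Heyl (1419302_at, 1438886_at and 1419303_at). The second Notch1 probe set and those of Notch2, Dll1, Hey1 and Numb were not called. On the MB arrays the difference for Jag1 was -0.85 ± 0.42 and was not called (adjusted p = 0.612). No test for outlying arrays was run, since each group had only 3.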

How the results depend on the processing

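Over the 15 tested member probe sets, no called change reversed its direction under any of the alternatives run. The count of 11 called MA probe sets for the shRNA in DM lay between 9 and 11 over all alternatives, that of 10 for DM against GM with the shRNA between 9 and 10, that of 12 with the vector between 10 and 13, and that of 9 differing responses between 7 and 9. With a minimum of 100, Jag2 1426431_at and Heyl 1419303_at were no longer tested. The lower ends therefore come partly from probe sets that left the test. For the shRNA in GM the count of 1 was 2 with a pseudocount of 50, 2 with a minimum of 100, 3 with quantile normalization and 4 with only the 6 arrays of GM. Leaving out 1 array gave 1 to 5. The share of all MA probe sets called under each of these settings is not given here. A rise in calls over all probe sets therefore cannot be told from a rise among the members. Every added call in GM was lower with the shRNA, and Hey1 was called higher in each of these fits. For the fit of 6 arrays fewer arrays set the spread. Leaving out a DM array, or a minimum of 100, kept the GM estimates and changed only their spread and adjusted p. For Notch3 1421965_s_at the change stayed at -0.43, with an SE of 0.127 in the main fit and 0.106 without vector replicate 3 of DM. For the pseudocount of 50 and quantile normalization the cause was not tested. The MB count stayed at 0 in all.

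With the replicate block, the counts were 10 and 12 for the medium with the shRNA and the vector, 11 and 1 for the shRNA in DM and GM, and 8 for the differing responses, of which Heyl 1419303_at lost its call (0.92, adjusted p = 0.0652). Same-numbered MA arrays deviated from their group means with correlations between -0.139 and 0.293, and MB arrays between -0.039 and 0.028. On the MA arrays the same-numbered array was the closest one in most pairs, such as vector replicates 1 and 3 across media (0.166 and 0.293). On the MB arrays it mostly was not. Whether the numbers mark paired samples was not tested. Without a signal filter, Heyl 1419303_at also lost its differing response (adjusted p = 0.0652), and the 4 added weak probe sets gave 0 calls in limma. MB noise limits what Jag1 can show.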
